A study of Mus musculus with 24 samples.

Results

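The genes described here are those with a strong signal in DN3 thymocytes, compared between *TLX1* transgenic and control mice. Each gene was represented by 1 probe set, the one with the highest mean signal over all 24 arrays of the study, and was called bright if this probe set had a mean signal of 200 or more over the 8 DN3 arrays. This left 5924 of 18194 genes, and the fit that tested them ran over 27022 probe sets. The choice used signal strength over both genotypes and no difference between them. Just inside the threshold lay *Atpaf2*, *Ttc7b* and *Gba2*, with mean signals of 200.3, 200.2 and 200.1, and just outside it lay *Scmh1*, *Thumpd2* and *Supt6*, with 199.9, 199.8 and 199.8.

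The TLX1 mice were IgHμ-TLX1Tg Prkdc Scid/Scid animals and the control mice were Prkdc Scid/Scid, so both genotypes carried the *Prkdc* mutation and differed by the transgene. The labels give all mice as outbred ICR and 6 to 8 weeks old, while the study's methods give a CD1 background for the transgenic parent line and its cohort description gives younger ages for TLX1 pools 1 and 2 and control pool 2. Each genotype was sampled as 4 pools of 2 to 5 mice, and every pool was sorted into 3 stages (DN1, DN2, DN3), each hybridised to 1 Affymetrix array, so that a pool is the replicate (n = 4 pools per genotype). The mice were female in TLX1 pools 1 and 4 and in control pools 2 and 4, and male elsewhere. The transgene was driven by the IgHμ promoter, whose activity is mostly found in B cells with some leakage into thymocytes, so a DN3 pool may hold cells with and without transgene expression.

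DN3 thymocytes lack CD4, CD8 and CD44 and carry CD25. In a normal thymus they rearrange the T cell receptor β locus and, once a β chain pairs with the pre-TCR α chain, leave the stage in a burst of division. Cells without functional DNA-PK, the kinase encoded by *Prkdc*, cannot join V(D)J ends efficiently and mostly arrest there. TLX1 is a homeodomain transcription factor that is normally silent in T cells and is expressed ectopically in a group of T cell acute lymphoblastic leukemias.

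The labelled stage was checked against its markers. All 9 markers of the DN3 gate and stage were bright, and *Il2ra*, which encodes CD25, had signals of 5541, 5509, 4398 and 5471 in control pools 1 to 4 and of 4507, 5226, 4428 and 4323 in TLX1 pools 1 to 4. *Cd44* was near background, between 9.52 and 29.0. The summed signal of the 9 markers ran from 28070 to 31750 in control pools and from 24670 to 29030 in TLX1 pools, and none of the 9 passed the test. Of the 12 markers of earlier thymocytes and progenitors 0 were bright. Among markers of other cells, 3 of 7 were bright for γδ and innate-like T cells and 1 of 7 for double-positive and mature T cells. It was 2 of 12 for NK cells, 2 of 12 for B cells, 3 of 19 for myeloid cells and 1 of 8 for mast cells. For thymic epithelium and stroma it was 1 of 14, and for erythroid cells 0 of 6. *Gzma* had a mean signal of 2612 and *Lyz1* of 1468. The source of these signals was not tested. *Prkdc*, mutated in both genotypes, differed by a log2 fold change of 0.11 (SE 0.13). The mouse *Tlx1* probe set was near background in both genotypes, at 4.51 to 9.98 in TLX1 pools and 7.46 to 14.04 in control pools, and may not read the human transgene, so the arrays do not check the transgene itself.

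Several pools stood apart. The pools numbered 4 of both genotypes were separated from the other 6 by the first principal component of the bright genes, which took 45.2% of the variance. *Cd8a*, a coreceptor chain that DN3 cells should lack, had signals of 813 in control pool 3 and 175 in TLX1 pool 2, against 6.90 to 17.5 in the other 6, and *Cd8b1* had 567 and 175 in the same pools. *Cd4* was near background there, at 7.86 and 3.81, against 1.48 to 2.99 elsewhere. *Cd6* was lowest in control pool 3 (70.8) and highest in TLX1 pool 2 (123), and *Cd53* was lowest in control pool 3 (2136). Control pool 3 and TLX1 pool 2 are also the pools with the most cells outside the sort gates in the study's cohort description. The granulocyte genes *S100a8* and *S100a9* had 731 and 366 in TLX1 pool 4, against at most 14.4 and 9.25 elsewhere. Other myeloid markers were mixed in that pool. *Itgam* (2.72), *Elane* (4.76) and *Lyz2* (803) lay within the range of the other pools, and *Mpo* was highest there, at 22.95 against 4.47 to 12.69. The 3'/5' index, which sets the 3' end of *Actb* and *Gapdh* transcripts against their 5' end (log2, mean of both genes) as a sign of RNA quality or labelling, was 0.18 ± 0.11 (SD, n = 4) in TLX1 pools and 0.53 ± 0.030 in control pools. The ranges of 0.10 to 0.34 and 0.50 to 0.57 did not overlap (exact permutation test, two-sided, p = 0.0286, the smallest p that 4 pools against 4 allow; 0.0429 after Benjamini-Hochberg adjustment over the index and its 2 parts). The part of these differences in the gene results below was not tested beyond the alternative fits named.

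The first question was whether any bright gene differed between the genotypes. With a moderated test in limma and Benjamini-Hochberg adjustment over all 27022 probe sets, 0 of 5924 bright genes had an adjusted p under 0.05 where 5 probe sets (0.0185%) passed in the whole fit. The smallest adjusted p of a bright gene was 0.304. At an unadjusted p under 0.05 there were 102 bright genes, or 1.72%, against 6.02% of all probe sets, and 49 of the 102 were higher and 53 lower in TLX1 pools. The unpaired test of the methods, run on the same values, also called 0 after adjustment and had 319 below 0.05 before it. At the thresholds of the methods (p of 0.05 or less without adjustment, together with a 1.4-fold difference), 14 bright genes were higher (0.236%) and 4 lower (0.0675%) in TLX1 pools, against 3.33% and 0.995% of all probe sets. These counts rested on single pools, since without control pool 4 they were 48 and 18, and without both pools numbered 4 they were 45 and 12.

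The spread of the bright genes was narrow. Their log2 fold changes had a median of -0.020, with 5% below -0.25 and 5% above 0.25, and the median standard error was 0.16 against 0.22 over all probe sets. For 3053 genes (51.5%, against 22.7% of all probe sets) the unadjusted 95% interval of the fold change lay inside 1.4-fold in either direction, and for 5728 (96.7%) it lay inside 2-fold. Regardless of p, 31 genes were at least 1.4-fold higher (0.523%, against 7.96% of all probe sets) and 17 at least 1.4-fold lower (0.287%, against 3.91%). Only *Egr1*, *Fos*, *5830411N06Rik* and *Cd163l1* reached 2-fold, and each varied widely between pools of one genotype. The interval is unadjusted, and a gene inside it may still differ by a smaller amount.

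**Figure D1:**
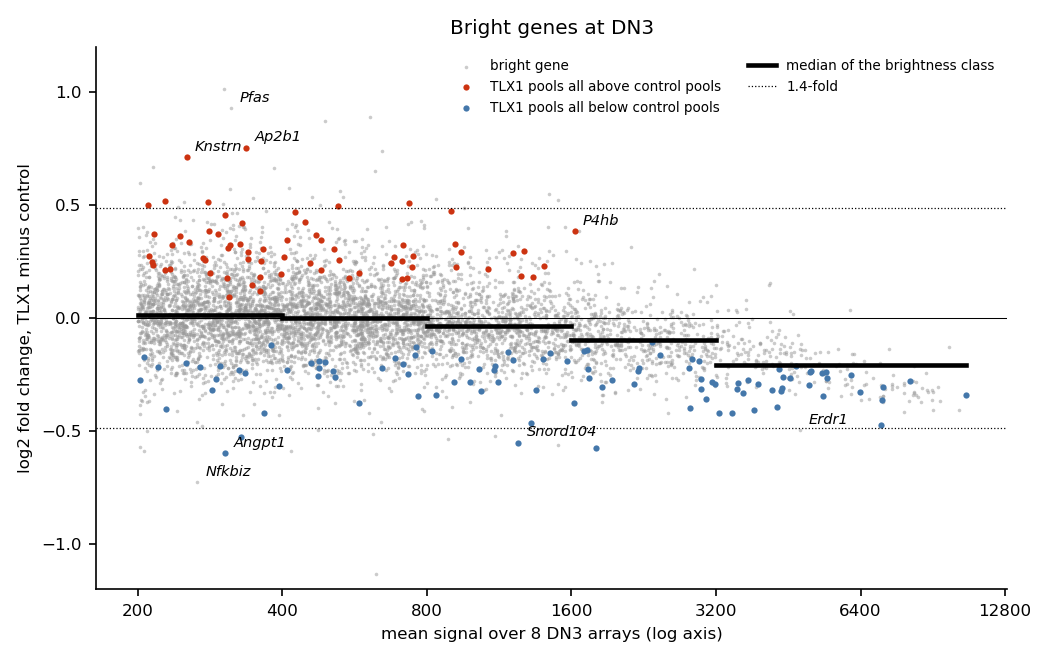
Each point is 1 of the bright genes at DN3, with its mean signal on a log axis and its log2 fold change (TLX1 minus control); red and blue points have all 4 TLX1 pools above or below all 4 control pools, black lines are the medians of 5 brightness classes, and dotted lines mark 1.4-fold. The cloud stays mostly inside 1.4-fold, and the class medians go from 0.013 at signals of 200 to 400 down to -0.21 from 3200; 2 genes (*Egr1* and *5830411N06Rik*) lie outside the drawn range of 1.2.

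The gene with the smallest p was *Ap2b1*, which encodes the β subunit of the AP-2 adaptor of clathrin-coated pits. Its signals were 273, 236, 242 and 249 in control pools 1 to 4 and 416, 429, 485 and 364 in TLX1 pools 1 to 4. All TLX1 pools were above all control pools, and the log2 fold change was 0.75 (SE 0.13, limma adjusted p = 0.304). A second *Ap2b1* probe set, with a mean signal of 129, had a log2 fold change of 0.013 (SE 0.20), so the probe sets of this gene disagree. At DN1 and DN2 the log2 fold change of the bright probe set was 0.037 and 0.51 in the same pools.

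Among the genes higher in TLX1 pools at the thresholds the next by p was *Stau1*, which encodes a double-stranded RNA-binding protein of mRNA transport and decay, with 155, 207, 167 and 170 in control pools and 248, 242, 272 and 221 in TLX1 pools (log2 fold change 0.50, SE 0.14). *Tmem43*, which encodes a nuclear envelope protein, had 174, 194, 160 and 226 in control pools and 264, 265, 247 and 297 in TLX1 pools (0.52, SE 0.15). *Hspa14*, which encodes a ribosome-associated Hsp70, had 364, 390, 466 and 519 in control pools and 605, 630, 547 and 652 in TLX1 pools (0.50, SE 0.15). The genotypes did not overlap in any of the 3 genes, with limma adjusted p of 0.583, 0.583 and 0.660. The dimmer probe sets of *Stau1* and *Hspa14* had log2 fold changes between -0.081 and 0.16, so here too the probe sets of a gene disagree.

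*Knstrn*, which encodes a kinetochore-localised adaptor needed for chromosome alignment, had 130, 188, 208 and 246 in control pools and 296, 322, 248 and 384 in TLX1 pools (0.71, SE 0.22, limma adjusted p = 0.686). The genotypes did not overlap, though control pool 4 and TLX1 pool 3 were almost level. Its log2 fold change was 0.51 at DN1 and 0.73 at DN2. *Pfas*, which encodes an enzyme of purine synthesis, had the largest fold change of the 14 genes (0.93, SE 0.32, limma adjusted p = 0.721), with 129, 286, 157 and 323 in control pools and 404, 436, 299 and 469 in TLX1 pools. Here control pool 4 was above TLX1 pool 3.

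The other genes higher in TLX1 pools at the thresholds were *Max*, the dimerisation partner of Myc (0.50, SE 0.17), *Pkn2*, a serine/threonine kinase (0.57, SE 0.20), *Snx6*, a retromer-linked sorting nexin (0.65, SE 0.26), *Gm4951*, an interferon-inducible GTPase family member (0.54, SE 0.22), *Sdf2l1*, a chaperone cofactor of the endoplasmic reticulum (0.51, SE 0.21), and *Purb*, a single-stranded nucleic acid-binding protein (0.51, SE 0.21). *Usp18* and *Sqstm1* complete the 14. Single pools weigh on several of them. *Snx6* was at 291 and *Purb* at 383 in control pool 3, against 533 to 573 and 668 to 717 in the other control pools, and *Sdf2l1* was at 481 in TLX1 pool 4, against 275 to 298 in the other TLX1 pools. In *Max* and *Pkn2* it was TLX1 pool 4, at 262 and 250, that lay at the level of the control pools. Both turned negative once the 3'/5' index entered the fit (-0.43 and -0.44). The index did not overlap between the genotypes, so a fit with both cannot tell them apart. Its median standard error over the bright genes was 0.41, against 0.16 without the index.

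**Figure D2:**
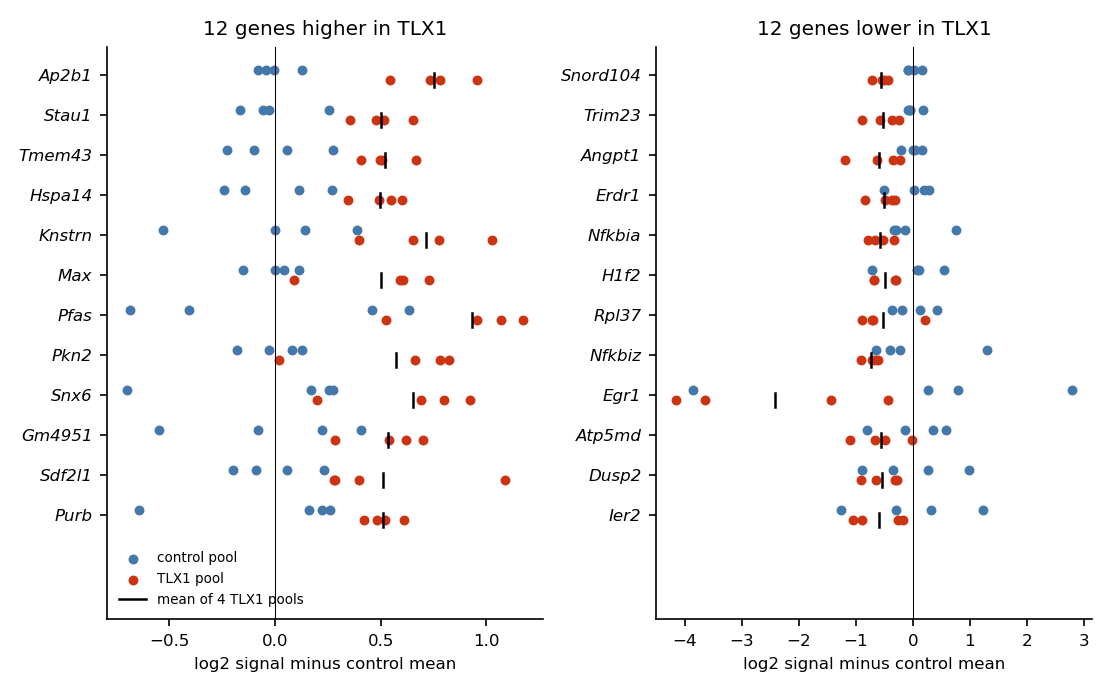
Log2 signal of each DN3 pool minus the mean of the 4 control pools, for the 12 genes with the smallest p among those at least 1.4-fold higher in TLX1 pools (left) and the 12 likewise lower (right); blue points are control pools, red points TLX1 pools and black ticks the mean of 4 TLX1 pools. The *Ap2b1* and *Snord104* pools separate cleanly by genotype, while *Egr1*, *Dusp2* and *Ier2* spread over the control pools as widely as the difference itself; the horizontal scales differ.

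Among the genes lower in TLX1 pools the smallest p belonged to *Snord104*, named after a small nucleolar RNA that guides RNA methylation. Its signals were 1482, 1646, 1379 and 1388 in control pools and 1037, 1083, 1010 and 892 in TLX1 pools (log2 fold change -0.55, SE 0.13, limma adjusted p = 0.463). All TLX1 pools were below all control pools. The difference kept its sign under all alternatives, from -0.77 to -0.50.

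Small nucleolar RNAs are cut from the introns of host transcripts, many of which code for no protein. Because *Snord104*, *Zfas1* and *Snhg1* were among the genes without overlap, all bright genes named as small nucleolar RNAs or their non-coding hosts were collected by symbol, a choice made after their values were seen. There were 13, all with a negative log2 fold change (median -0.24), where 55.6% of the bright genes were negative. *Zfas1* had 4191, 3797, 3945 and 3855 in control pools and 2876, 2720, 3040 and 3189 in TLX1 pools (-0.42, SE 0.12), and *Snhg1* had 4609, 4996, 4149 and 3839 against 3289, 3199, 3230 and 3480 (-0.41, SE 0.13). Neither gene overlapped between the genotypes. *Gas5* (-0.33, SE 0.13) and *Snhg8* (-0.37, SE 0.16) were also below 0.05 before adjustment, and 0 of the 13 passed after it (smallest limma adjusted p = 0.463). The median of the 13 lay between -0.35 and -0.22 under every setting tried, while with the 3'/5' index in the fit 8 of the 13 were negative.

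*Trim23*, which encodes a ubiquitin ligase, had 370, 362, 435 and 371 in control pools and 207, 296, 256 and 322 in TLX1 pools (-0.52, SE 0.17, limma adjusted p = 0.686), with no overlap. *Angpt1*, which encodes the ligand angiopoietin 1, had 405, 362, 371 and 311 in control pools and 309, 285, 232 and 159 in TLX1 pools (-0.60, SE 0.22, limma adjusted p = 0.766). The lowest control pool and the highest TLX1 pool of *Angpt1* lie next to each other, and its dim second probe set had a log2 fold change of 0.68. *Erdr1* had 6330, 3880, 5596 and 6741 against 3097, 3940, 4285 and 4463 (-0.50, SE 0.21, limma adjusted p = 0.819), and its probe set is of a kind that can bind related transcripts. *Trim23* turned to 0.086 with the 3'/5' index in the fit.

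The other 13 genes at least 1.4-fold lower did not reach an unadjusted p of 0.05. Several of them belong to activation responses. *Nfkbia*, which encodes the NF-κB inhibitor IκBα, had 1692, 3515, 1900 and 1658 in control pools and 1321, 1449, 1648 and 1211 in TLX1 pools (-0.57, SE 0.25). The genotypes did not overlap, though by a small margin. *Nfkbiz*, *Egr1*, *Dusp2* and *Ier2* were highest in control pool 2 and overlapped between genotypes. *Egr1* had 346, 1379, 239 and 13.8 in control pools and 73.4, 15.9, 147 and 11.2 in TLX1 pools (-2.42, SE 1.399, limma adjusted p = 0.914). *Fos*, its companion immediate early gene, had 1066, 2221, 484 and 11.6 against 479, 26.6, 671 and 66.9, and *Jun* had 642, 1357, 336 and 53.0 against 779, 161, 522 and 311. Both genes varied more between pools of one genotype than between the genotype means. Of the 13 bright immediate early genes 10 had a negative log2 fold change (median -0.20), and 0 passed at either threshold.

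Differences between the genotypes depended on how bright a gene was. The median log2 fold change was 0.013 for the 2133 genes with a mean signal of 200 to 400, 0.0019 for 1870 genes of 400 to 800, -0.036 for 1120 genes of 800 to 1600, -0.099 for 555 genes of 1600 to 3200 and -0.21 for the 246 genes from 3200 upwards. In the last class 234 of 246 log2 fold changes were negative. There 30 genes (12.2%) had all TLX1 pools below all control pools and 0 the reverse, where over the bright genes 102 (1.72%) were lower and 67 (1.13%) higher without overlap, and over all probe sets 1.25% and 2.64%. If pools were assigned to genotypes at random, a gene would separate in either direction with probability 0.0286. Both shares of the bright genes together lie near that. In the class from 3200 upwards without the ribosomal protein genes, 201 of 213 were negative (median -0.19).

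By pool, the median of these 213 genes relative to the control mean was 0.0046, 0.042, -0.051 and 0.027 in control pools 1 to 4 and -0.25, -0.17, -0.34 and -0.025 in TLX1 pools 1 to 4. TLX1 pools 1 to 3 lay below all control pools, and TLX1 pool 4 lay among them. The same pool had the highest 3'/5' index of the TLX1 pools, 0.34 against 0.10, 0.16 and 0.13. At DN1 and DN2 the median of the 246 genes was -0.14 and -0.13 in the same pools of mice. Under quantile normalization, which gives every array the same distribution, the median of the 246 genes was 0.0090 with 106 negative, and 0.22 once the 3'/5' index entered the fit. The median of the brightest class thus differed between these settings. Quantile normalization levels such a class by construction, and the index did not overlap between the genotypes, so neither can show what set the direction. The cause was not tested.

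**Figure D3:**
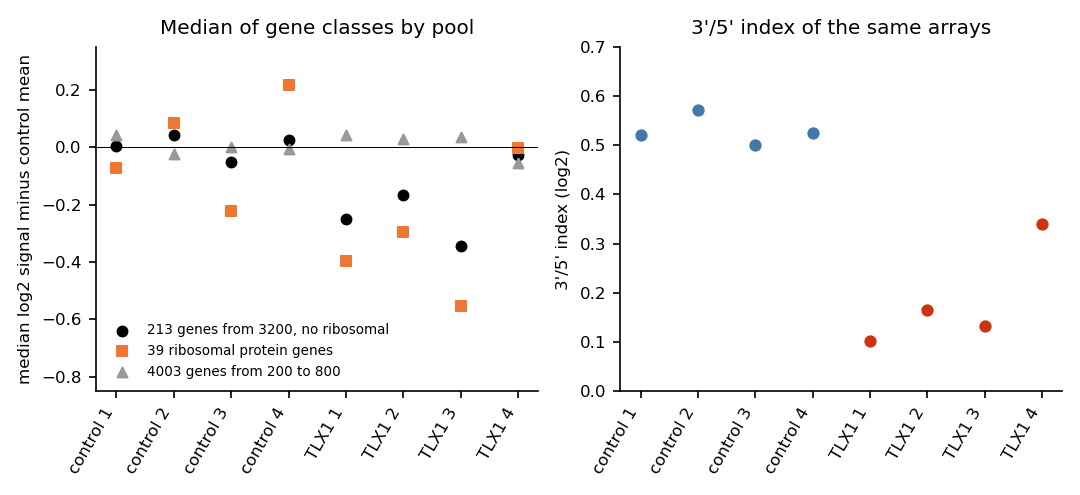
Left, median log2 signal relative to the control mean in each DN3 pool for genes from 3200 without ribosomal protein genes (black circles), ribosomal protein genes (orange squares) and genes of 200 to 800 (grey triangles); right, the 3'/5' index of the same arrays (blue control, red TLX1). TLX1 pools 1 to 3 hold the lowest medians of the 213 genes and the lowest indices, and TLX1 pool 4 is nearest to the control pools in both.

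Gene lists were drawn up by function and are described by their counts and medians, with no test of the list. In all 29 lists 0 bright members passed the adjusted test, in the fit above and in every alternative. Cytosolic ribosomal proteins, the protein part of the ribosome, had the lowest median, -0.33 over 39 bright genes, of which 37 were negative. *Rplp2*, which encodes a stalk protein of the large subunit, had 11570, 12930, 9729 and 12560 in control pools and 8354, 9275, 7510 and 10180 in TLX1 pools (-0.41, SE 0.15). TLX1 pool 4 was above control pool 3, so the genotypes overlapped. *Rpl38* had 11260, 13100, 10320 and 12660 against 8987, 9915, 8151 and 10290 (-0.34, SE 0.14), with no overlap by a narrow margin. In these genes, as in the list, 33 of 39 members belonged to the class from 3200 upwards, and the 6 others had a median of -0.099. The median of the list was 0.0038 under quantile normalization and 0.43 with the index as a covariate. Ribosomal protein probe sets can also bind transcripts of processed pseudogenes.

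Ribosomal protein transcripts often begin with a C followed by a run of pyrimidines, the motif through which their translation is controlled. To show it, *Rplp2*, *Rpl38* and *Rpl4* were taken from among the members lowest in p. The 15 bases before and the 15 bases from the RefSeq start on are given (GRCm38.p6, transcribed strand, 5′ to 3′). Runs of at least 5 pyrimidines that open with a C within 10 bases of the start are in capitals.
Rplp2, chr7:141447636-141447665, plus strand: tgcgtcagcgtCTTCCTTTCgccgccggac
Rpl38, chr11:114668565-114668594, plus strand: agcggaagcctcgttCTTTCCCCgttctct
Rpl4, chr9:64173372-64173401, plus strand: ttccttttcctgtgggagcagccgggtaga
In *Rplp2* and *Rpl38* the run spans or opens at the start, and in *Rpl4* (-0.35, SE 0.15) no such run begins within 10 bases of the listed start. *Rpl41*, whose p lay between those of *Rpl38* and *Rpl4*, is not shown and has no such run either. Such a run was found in 21 of the 34 bright ribosomal protein genes with a RefSeq promoter (61.8%), in 37.5% of bright genes and in 34.4% of all genes. A run that opens exactly at the start was found in 20.6%, 3.21% and 3.01%. A match describes letters near a listed start and is not a measured start site.

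Subunits of oxidative phosphorylation, the mitochondrial chain that makes ATP, were negative in 57 of 62 bright genes (median -0.16). The genotypes did not overlap in 11 of them, all lower in TLX1 pools, where the share lower without overlap was 1.72% of bright genes, 1.25% of all probe sets and 12.2% of the class from 3200 upwards. *Atp5e*, a subunit of ATP synthase, had 3385, 3263, 3235 and 3288 in control pools and 2555, 2796, 2493 and 2773 in TLX1 pools (-0.31, SE 0.11, limma adjusted p = 0.753). *Atp5h*, another subunit, had 4878, 4525, 5414 and 4660 against 3725, 4045, 3639 and 4150 (-0.32, SE 0.12), and *Uqcr10*, of complex III, had 1528, 1372, 1778 and 1328 against 1182, 1198, 1216 and 1182 (-0.32, SE 0.13). The pools separated in each of the 3 genes. Of the 62, 17 were in the class from 3200 upwards (median -0.24), and the rest had a median of -0.14. At DN1 and DN2 the medians of the list were -0.14 and -0.090, in the same pools. Quantile normalization left a median of -0.068 with 49 negative, and the index as a covariate gave 0.050.

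Splicing factors were negative in 37 of 48 bright genes (median -0.12), with 7 lower and 0 higher without overlap. The shares lower without overlap were 1.72% over bright genes, 1.25% over all probe sets, 3.96% at signals of 1600 to 3200 and 12.2% from 3200, the class of 12 of the 48. *Srsf5*, which encodes a serine/arginine-rich splicing protein, had 3129, 4052, 2847 and 2858 in control pools and 2531, 2418, 2351 and 2366 in TLX1 pools (-0.40, SE 0.15). *Luc7l2*, a component linked to the U1 particle, had 1902, 1756, 1741 and 1924 against 1301, 1532, 1427 and 1395 (-0.37, SE 0.12), and *Hnrnph1* was also without overlap (-0.32, SE 0.12). A second *Luc7l2* probe set with a mean signal of 382 also had all TLX1 pools lower (-0.33, SE 0.12), while the others of that gene lay between -0.17 and 0.36. Translation factors were negative in 23 of 29 (median -0.14), among them *Eif5a* (-0.36, SE 0.14) and *Eef1a1* (-0.36, SE 0.16). Actin and its regulators were negative in 25 of 36 (median -0.100), with *Actb* at 6577, 7094, 7184 and 7494 in control pools and 5448, 6449, 5003 and 5737 in TLX1 pools (-0.33, SE 0.13). All TLX1 pools were lower for *Actb*, whose control probe sets also enter the 3'/5' index. The 12 splicing factors from 3200 upwards had a median of -0.24 and the rest of -0.063. For translation factors 13 were in that class (median -0.22), and the rest had a median of -0.053. Of the actin list 11 were in it (-0.20), and the rest had a median of -0.054. Medians of the 3 lists turned positive with the index as a covariate.

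The lists with most positive members were interferon-stimulated genes and mitosis genes. Of 28 bright interferon-stimulated genes 24 were positive (median 0.16), and 2 were below 0.05 before adjustment. *Igtp*, which encodes an interferon-inducible GTPase, had 1724, 1512, 1427 and 2056 in control pools and 2322, 1900, 2510 and 2247 in TLX1 pools (0.43, SE 0.16, limma adjusted p = 0.768), and *Usp18*, which encodes a protease that removes ISG15, had 607, 377, 336 and 439 against 635, 591, 807 and 492 (0.54, SE 0.23). Both genes overlapped between the genotypes. The median was 0.013 without control pool 3 and -0.16 with the index as a covariate. The list was drawn up with earlier results of these data in view and is not independent evidence of its direction. Its median was 0.23 at DN1 and 0.19 at DN2.

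Genes of mitosis and the spindle were positive in 28 of 38 (median 0.11), with 0 below 0.05 and a median SE of 0.27, against 0.16 over all bright genes. Control pool 3, the pool with the most *Cd8a* signal, stood out in them. *Birc5*, which encodes survivin, had 778, 689, 1798 and 613 in control pools and 874, 1040, 873 and 1012 in TLX1 pools. *Bub1*, a checkpoint kinase, had 489, 402, 1010 and 275 against 450, 551, 476 and 443, and *Ccna2*, which encodes cyclin A2, had 857, 673, 1756 and 502 against 808, 949, 847 and 711. In all 3 genes control pool 3 was highest of the 8 and the 4 TLX1 pools lay within the range of the control pools. The smallest p of the list belonged to *Ncapd2* (0.29, SE 0.25). Without control pool 3 the median of the list was 0.38, without control pool 4 it was -0.050, and without both pools numbered 4 it was -0.056. At DN1 and DN2 the median was 0.21 and 0.21, with 1 and 6 of the 38 negative, in the same pools of mice.

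**Figure D4:**
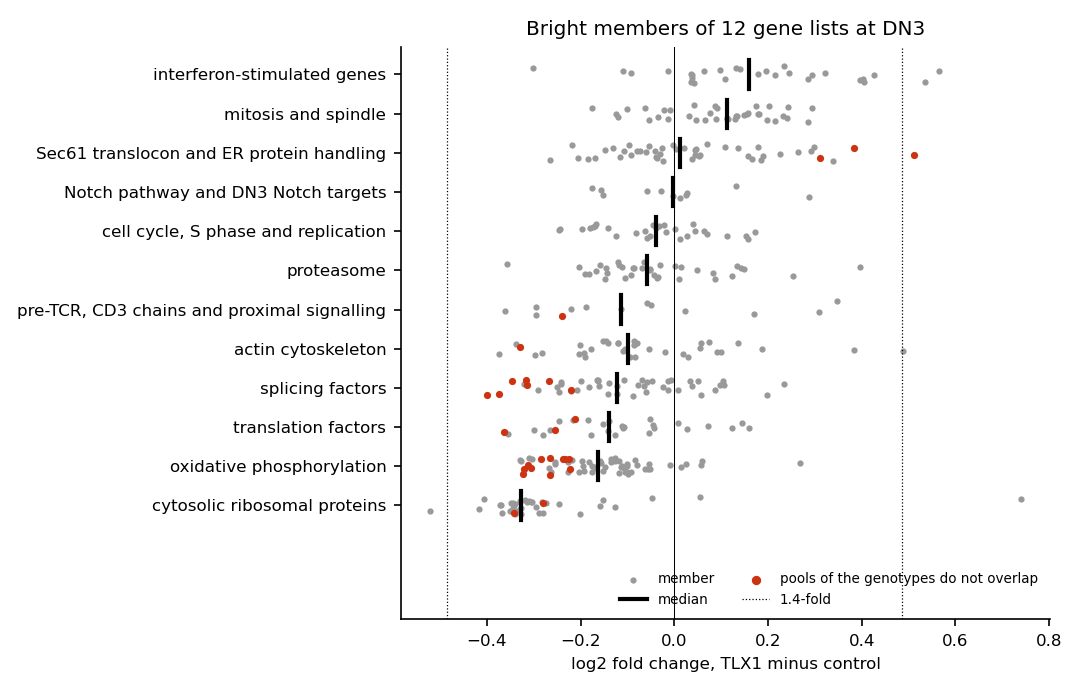
Log2 fold changes (TLX1 minus control) of the bright members of 12 gene lists at DN3, 1 point per gene, with the list median as a black bar and dotted lines at 1.4-fold; red points are genes whose 4 TLX1 pools are all above or all below the 4 control pools. Medians run from 0.16 for interferon-stimulated genes to -0.33 for ribosomal proteins, and few members pass 1.4-fold.

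Genes of the endoplasmic reticulum were balanced, 24 positive and 22 negative (median 0.012). In 3 of the 46 all TLX1 pools were above all control pools, where the share was 1.13% of bright genes and 2.64% of all probe sets. *P4hb*, which encodes a protein disulfide isomerase, had 1300, 1532, 1296 and 1520 in control pools and 1825, 1891, 1748 and 1888 in TLX1 pools (0.38, SE 0.12, limma adjusted p = 0.686). *Sdf2l1* (0.51) is described above, and *Dnajb11*, its partner cochaperone of BiP, had 271, 264, 307 and 259 against 313, 309, 336 and 414 (0.31, SE 0.14). The groups were nearest in *Dnajb11*. Of the translocon itself, *Sec61b* was at -0.22 (SE 0.14), *Sec61a1* at 0.070 (SE 0.16) and *Sec61a2* at -0.25 (SE 0.14). Among the Myc and ribosome biogenesis genes *Nop58*, of the small nucleolar ribonucleoprotein core, was higher without overlap (0.33, SE 0.13) and *Nop10*, of another such particle, lower without overlap (-0.29, SE 0.12).

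Genes that define the stage had small differences. The pre-TCR and CD3 list was negative in 9 of 13 (median -0.11), and the Notch list in 6 of 11 (median -0.0036). *Ptcra*, the gene of the invariant pre-TCR chain, had 2126, 2261, 2207 and 1821 in control pools and 2122, 2400, 1764 and 1826 in TLX1 pools (-0.059, SE 0.15). *Rag1* (-0.023, SE 0.17) and *Notch1* (-0.15, SE 0.14) overlapped between the genotypes, as did *Notch3* (0.012, SE 0.17) and *Bcl11b* (-0.14, SE 0.13). *Ptprc*, which encodes CD45, was lower without overlap, at 5588, 5217, 5586 and 5387 in control pools and 4491, 5008, 4665 and 4291 in TLX1 pools (-0.24, SE 0.12, limma adjusted p = 0.864). It belongs to the class from 3200 upwards, where 12.2% of genes were lower without overlap. The 4 members of the pre-TCR and CD3 list in that class had a median of -0.27, and the rest of -0.051. None of the 10 V(D)J recombination and end joining genes passed at either threshold, and *Xrcc5*, which encodes Ku80, was lower without overlap (-0.20, SE 0.11).

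The study names cell cycle, apoptosis and chromosome segregation genes from its arrays and from qRT-PCR, and 31 of them are bright at DN3. Of these 13 were positive and 18 negative (median -0.027), 0 passed the adjusted test and 1, *Prnp*, which encodes the prion protein, was below 0.05 before it (0.40, SE 0.17). It had 668, 556, 455 and 584 in control pools and 744, 721, 892 and 632 in TLX1 pools, with TLX1 pool 4 below control pool 1. *Aurka* was at 0.20 (SE 0.27), *Chek1* at -0.12 (SE 0.19), *Brca1* at -0.027 (SE 0.27), *Anapc5* at -0.16 (SE 0.13), *Myc* at -0.15 (SE 0.24) and *Myb* at -0.29 (SE 0.14). The standard errors of *Aurka*, *Bub1* and *Brca1* were above the median of the bright genes, and a 1.4-fold difference lay inside their intervals. By qRT-PCR on DN1, DN2 and DN3 cells the study reports *Aurka*, *Bub1* and *Anapc5* higher in *TLX1*-expressing thymocytes. It reports *Birc5* and *Brca1* higher in DN2 and *Chek1* lower in DN1. Cyclin A, *Myc* and *Myb*, assessed as genes linked to human T cell leukemia, are also reported higher. Those assays were not set against the values here.

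The dimmer probe sets of the same genes read differently. Most of these genes were named from the study's own comparison of these arrays, so for those the directions below are no independent evidence. The study assayed the others by qRT-PCR. Of the 31 genes, 28 had 66 further probe sets in the fit, and 48 of the 66 were positive (median 0.27). At the thresholds 22 were higher and 0 lower, and 0 passed the adjusted test (smallest limma adjusted p = 0.340). They were 17 of 29 at signals of 50 to 200 and 4 of 17 below 50, but 1 of 20 at 200 or more, where 11 were positive. Over the further probe sets of all bright genes the shares higher at the thresholds were 9.21%, 10.8% and 2.78% in the same classes.

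*Anapc5*, a subunit of the anaphase promoting complex, had a probe set with signals of 42.5, 77.5, 38.5 and 121 in control pools and 207, 236, 168 and 203 in TLX1 pools (1.69, SE 0.36, limma adjusted p = 0.386). All TLX1 pools were higher there, while the other 5 *Anapc5* probe sets, with mean signals of 2127 to 3145, lay between -0.22 and -0.12, 1 of them lower without overlap. *Brca1*, a DNA repair factor, had 2 dim probe sets at 0.78 (SE 0.28) and 0.60 (SE 0.21), and another at -0.067 (SE 0.20). Further probe sets were higher without overlap for *Api5* (0.73, SE 0.16), *Gsk3b* (0.63, SE 0.23), *Babam2* (0.55, SE 0.16) and *Cdc23* (0.41, SE 0.13). That of *Babam2* had a mean signal of 262 and was the one at or above 200 that reached the thresholds. For these genes the direction depended on the probe set, and which probe set reads the transcript was not tested.

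Spread within a genotype exceeded the difference between genotypes for many genes. The median SD within a genotype was 0.20 (log2), and 276 genes reached 0.5 and 33 reached 1. *Xist*, *Eif2s3y* and *Kdm5d* followed the sex of the pools. A block of genes was low in the pools numbered 4 of both genotypes, for example *Psmb7*, a proteasome subunit, with 2387, 2127, 2725 and 322 in control pools and 2341, 2514, 2141 and 354 in TLX1 pools. *Tgfb1* had 322, 351, 293 and 50.8 against 390, 344, 357 and 63.9. At DN3 65 bright genes were at least 2-fold lower in both of these arrays than in each of the other 6, and 2 were higher. For 30 lower genes, and for *Pofut2*, which was higher, the same held at all 3 stages. With a term for these pools, an alternative chosen after seeing the data, 0 bright genes were called (smallest limma adjusted p = 0.250, 254 below 0.05 before adjustment).

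Other genes were set by single pools. *H2-T3*, which encodes a thymic class I molecule, had 1127 in control pool 3 and 810 in TLX1 pool 2, the pools with *Cd8a* signal, and 115 to 241 in the others. TLX1 pool 3 had 2197 for *5830411N06Rik*, against 51.8 to 146 in the other pools, and 1077 for *Cd163l1*, a scavenger receptor of γδ T cells, against 99.5 to 329. It also had the highest *Ifitm1*, 1703 against 156 to 324. The summed γδ and innate-like markers ran from 6908 to 9907 in control pools and from 7578 to 8157 in TLX1 pools. Most of that sum was *Trgv4*, which was lowest in TLX1 pool 3, at 5719 against 6206 to 9288. Of the same markers *Maf* had 249 in TLX1 pool 3, against 26.6 to 84.2 elsewhere, and *Blk* 202 against 97.6 to 187. *Sox13*, *Zbtb16* and *Il17a* lay there within the range of the other pools. The heat shock genes *Hspa1a* and *Hspa1b* ranged from 22.97 to 739 and from 92.1 to 2676 over the TLX1 pools alone.

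**Figure D5:**
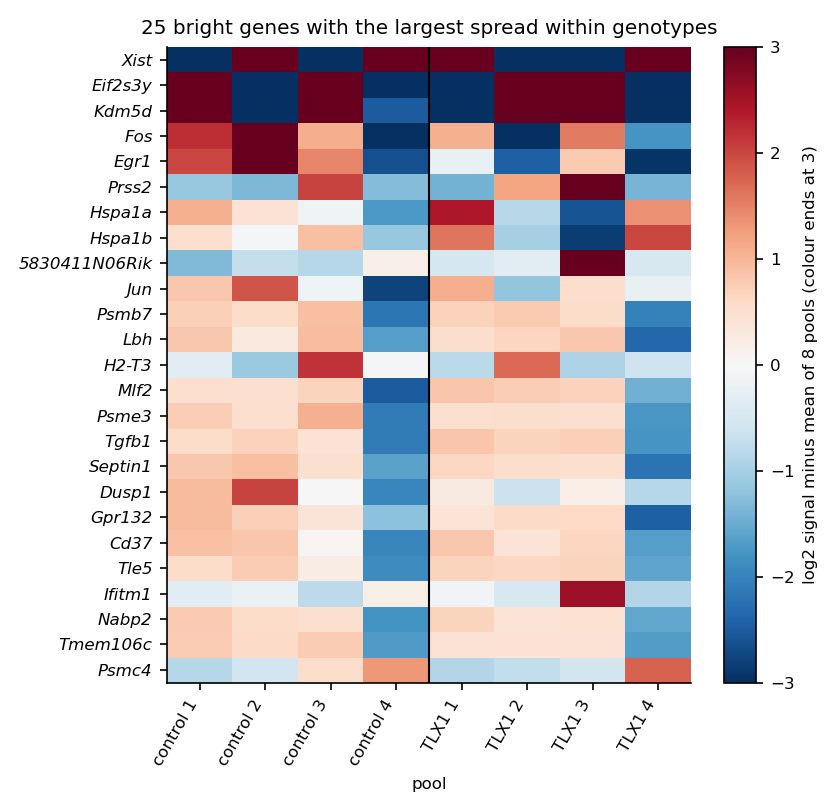
The 25 bright genes with the largest spread within genotypes, as log2 signal minus the mean of the 8 DN3 pools (red above, blue below, colour ends at 3); control pools stand left of the line and TLX1 pools right. The first 3 genes follow sex, *Fos*, *Egr1* and *Jun* are high in control pool 2 and low in control pool 4, and most genes from *Psmb7* to *Tmem106c* are low in both pools numbered 4 (not *H2-T3* or *Ifitm1*).

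Many bright genes have further probe sets on the array. For the 1787 genes with a second bright probe set, the log2 fold changes of the pair had the same sign in 61.8%. For genes lower without overlap it was 28 of 36 (77.8%), and for those higher 10 of 14 (71.4%). The further probe sets of the bright genes gave more differences the dimmer they were: at the thresholds 2.78% of those at 200 or more were higher, 9.21% of those from 50 to 200 and 10.8% of those under 50, against 0.118%, 0.225% and 1.44% lower. Using the median over all probe sets of a gene in place of the brightest raised the genes higher at the thresholds from 14 to 153.

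Whether a difference was particular to DN3 was tested as an interaction of genotype and stage, with the pool as a block. Among the bright genes 0 passed the adjusted test for DN3 against DN1, with 58 (0.979%) below 0.05 before adjustment against 3.23% of all probe sets, and 0 passed for DN3 against DN2, with 32 (0.540%) against 2.89%. With the pool as a random block 0 bright genes passed in either. No bright gene is therefore reported as differing at DN3 alone.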

How the data were processed

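Expression was measured on 24 Affymetrix mouse arrays, of which the 8 DN3 arrays (4 pools per genotype) entered the comparison. The deposited values are linear signal intensities that the authors computed with the MAS5 algorithm of Affymetrix Expression Console, scaled to a 2% trimmed mean of 150, per the labels and the submitters' processing notes. Software versions are not given in the sources used here. Linear scaling leaves differences in the shape of the distributions between arrays. The number of arrays limits the precision.

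Signals were floored at 1 and log2 transformed. The 60% of the 45037 probe sets other than controls with the highest mean were kept (27022, lowest mean signal 9.02). TLX1 and control pools were compared with limma 3.58.1 in R 4.3.3, and p-values were adjusted by the Benjamini-Hochberg method over all 27022. Of the probe sets, 34945 were named by 1 gene, 932 by several and 9160 by none, and only the first were used for genes. The test of stage differences used all 24 arrays with the pool as a block. p-values measure the spread between pools, each of which mixed several mice. The limma fit draws the spread of each probe set toward a value shared by all 27022, dim ones included. In a fit over only the probe sets with a mean DN3 signal of 200 or more, the median standard error of the bright genes was 0.14, against 0.16. There 225 bright genes were below 0.05 before adjustment, against 102, and 0 passed after it.

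Named genes were the 12 with the smallest p among those at least 1.4-fold higher and the 12 likewise lower, up to 3 bright members per list of function, the bright genes the study names, the stage markers, and *Tlx1* and *Prkdc*. Genes outside this rule were picked with their values in view. The members and the lists were chosen with earlier results of these data known. The alternatives were other scalings, filters, offsets, covariates, array weights, the choice of probe set, other brightness limits, the methods' t-test, and leaving out pools. Promoter sequences are from RefSeq (GRCm38.p6), with 4915 of 5924 bright genes matched by symbol.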

Additional observations from a re-analysis of the deposited data

Results flagged for a closer look

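In 22 of 284 groups of 4 pools, 1 pool lay far from the other 3, with a gap to its nearest neighbour, divided by the whole log2 range of the group, above the 95% critical value of Dixon's ratio, which chance passes in about 1 in 20 groups. The ratio and the signals are given for each.

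In TLX1 pool 4 *Sdf2l1* was at 481.3, above 274.8 to 297.8 (ratio 0.8562) and *Rpl37* was at 1472, above 686.3 to 776.6 (ratio 0.838). In the same pool *Xiap* was at 1239, above 978.3 to 1004 (ratio 0.8913) and *Qars* was at 1203, above 1053 to 1064 (ratio 0.9165). There *Ncapd2* was at 287.5, below 360.9 to 368.3 (ratio 0.9181) and *Psmd7* was at 733.6, above 537.5 to 543.5 (ratio 0.9643). There *Babam2* was at 300, below 499.3 to 553.2 (ratio 0.8326) and *Gsk3b* was at 509.5, below 748.7 to 773.6 (ratio 0.9217). There *Anapc1* was at 445.8, below 524.4 to 525.2 (ratio 0.9909) and *Brca1* was at 294.9, below 375.6 to 389.2 (ratio 0.8726).

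In control pool 3 *Snx6* was at 291.4, below 533 to 572.8 (ratio 0.8936) and *Purb* was at 383, below 668.4 to 716.6 (ratio 0.8889). In the same pool *Trim23* was at 435.4, above 362.4 to 371.2 (ratio 0.8688) and *Il2ra* was at 4398, below 5471 to 5541 (ratio 0.9453). There *Myb* was at 6008, below 7486 to 7810 (ratio 0.8388) and *Xrcc6* was at 4706, above 2670 to 2897 (ratio 0.856). There *Polk* was at 402.1, below 528.4 to 555.3 (ratio 0.8463).

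In control pool 4 *Fdps* was at 1050, above 529.8 to 566.6 (ratio 0.9018) and *Akt1* was at 313.7, below 636.6 to 727.4 (ratio 0.8415). In the same pool *Thy1* was at 4440, below 5187 to 5329 (ratio 0.8527).

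In control pool 2 *Xrcc5* was at 248.7, below 274.3 to 278.5 (ratio 0.8663).

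In TLX1 pool 1 *Prkdc* was at 408.1, above 350.9 to 354.2 (ratio 0.9368).

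TLX1 pool 4 and control pool 3 hold most of these values. They are the pool with *S100a8* and *S100a9* signal and the pool with the most *Cd8a* signal. Whether these pools held cells of other kinds, and the part of such cells in the values above, was not tested.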

How the results depend on the processing

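No alternative called a bright gene, at DN3 or for a stage difference, or a bright member of a gene list. With the pool as a random block, 1 of all 27022 probe sets was called for DN3 against DN1. The count higher at the thresholds (14) was 9 with quantile normalization, no filter or an offset of 32, 8 with the methods' t-test, 5 with median centring, 29 with array weights, 28 and 6 at brightness limits of 100 and 400, and 45 without both pools numbered 4. The count lower (4) was 8 with median centring or a term for the pool 4 arrays, 10 with array weights, 10 and 2 at limits of 100 and 400, and 12 without both pools numbered 4 or without control pool 3 and TLX1 pool 2. Genes without overlap, 67 higher and 102 lower, numbered 484 and 678 without both pools numbered 4 and 230 and 330 without control pool 3 and TLX1 pool 2. Fewer pools separate more easily, and both settings leave equally many. Why the counts differ between these settings was not tested. Genes higher without overlap numbered 32 with median centring and 102 and 33 at limits of 100 and 400. Intervals within 1.4-fold (3053) numbered 1529 without control pool 3 and TLX1 pool 2 and 2326 with median centring. They numbered 3753 in a fit over probe sets at 200 or more, 4237 with an offset of 32 and 3892 with array weights. In these last fits 225, 237 and 400 bright genes were below 0.05 before adjustment, against 102. Their smallest limma adjusted p were 0.159, 0.171 and 0.0925. Both fits concerning the pools numbered 4 were chosen after seeing the data.

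With the 3'/5' index in the fit, whose ranges did not overlap between the genotypes, 70 genes were higher and 199 lower at the thresholds. In that fit 0 intervals lay within 1.4-fold and the median log2 fold change was -0.084. The median standard error was 0.41, against 0.16 in the main fit, since index and genotype cannot be told apart. The changes of sign with the index, here and above, carry that limit. With the index *Max* (-0.43), *Pkn2* (-0.44), *Usp18* (-0.18) and *Prnp* (-0.0093) turned negative. *Trim23* (0.086), *Tmsb10* (0.25), *Rplp2* (0.18), *Rpl38* (0.097), *Rpl41* (0.23), *Eif5a* (0.093) and *Eef1a1* (0.26) turned positive. With the median over the probe sets of a gene, 153 genes were higher and 11 lower, 214 were higher without overlap, 1886 intervals lay within 1.4-fold, the median was 0.019, and *Hspa14* (-0.081), *Farsa* (-0.11), *Angpt1* (0.043) and *Luc7l2* (0.074) changed sign. Median centring gave a median of -0.080. The causes were not tested.

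Leaving out 1 pool at a time gave 7 to 48 higher and 3 to 18 lower at the thresholds, 80 to 259 higher and 126 to 420 lower without overlap, 1828 to 2741 intervals within 1.4-fold, and a median of -0.033 to -0.0031. The index difference (-0.35) was -0.40 to -0.32, with exact permutation p of 0.0286 to 0.0571, and with *Actb* alone it was -0.42 (exact p = 0.0571).

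With the replicate number as a block, 0 genes were called, with 12 higher and 6 lower at the thresholds. Deviations of the bright genes from their genotype means correlated between same-numbered pools at 0.26, -0.11, 0.055 and 0.64 for numbers 1 to 4. Only for number 4 was the same-numbered control pool the closest match of the TLX1 pool. The half-width of the interval was 1.29-fold for the median bright gene.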

Other observations

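Among the lists not described above, glycolysis was negative in 10 of 14 bright genes (median -0.066), the proteasome in 24 of 36 (-0.059) and chromatin and DNA methylation in 21 of 33 (-0.033). S phase and replication genes were negative in 18 of 29 (-0.039), and the anaphase promoting complex and cohesin in 13 of 24 (-0.018). Genes of cholesterol and fatty acid synthesis were positive in 12 of 20 (0.025) and p53 target genes in 9 of 14 (0.052). In these 7 lists 0 members were below 0.05 before adjustment.

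*Cdkn1b*, *Parp1* and *Casp6* were among the genes with all TLX1 pools above all control pools, and *Crip1* and *Mif* among those with all below. *Crip1*, a small LIM protein, had signals of 8354, 8659, 6540 and 9434 in control pools and 6182, 6449, 5375 and 5578 in TLX1 pools, a log2 fold change of -0.48. *Mif*, a cytokine, had 4085, 4036, 4106 and 3968 against 3147, 3310, 2931 and 3515, a log2 fold change of -0.33. All 5 were picked with their values in view, and none passed the adjusted test in limma. *Crip1* and *Mif* belong to the class from 3200 upwards, where 12.2% of genes were lower without overlap.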
